A study of Rattus norvegicus with 16 samples.

Results

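This report compares the infarct zone of rat hearts that received a stiff hydrogel after coronary ligation (MI_stiff) with that of hearts ligated and left without a gel (MI). The comparison was made up of every library labelled MI_stiff and every library labelled MI, 4 on each side, which are 8 of the 16 libraries of the series, and it was read across all genes. In the MI_stiff rats the left anterior descending coronary artery was ligated and a hydrogel called stiff was injected into the heart muscle. The MI rats had the ligation only. Ligation is thus common to both groups, and the remaining groups were a soft hydrogel after ligation (MI_soft) and control surgery (Sham). Neither what the gels were made of and how stiff they were, nor the time between injection and tissue collection, nor the strain, sex and age of the rats is stated in the labels. The extraction protocol mentions MI/R, which often stands for infarction with reperfusion, so it is unclear whether the ligature was released. Whether the 4 libraries in each group are 4 different rats is not stated either, and p-values therefore measure the spread between these libraries, which may be in part technical.

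A hydrogel is a water-swollen polymer network, and gels injected into an infarct are known to take up space in the wall, to change its mechanical load and to be met by macrophages. Macrophages that cannot engulf an object can fuse into multinucleated foreign body giant cells, which share membrane proteins and proteases with the osteoclasts of bone. An infarct itself heals by an inflammatory phase, followed by scar formation by activated fibroblasts that make collagen and, for a time, the contractile proteins of smooth muscle.

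Totals ran from 10940685 to 13061952 expected counts over the 8 libraries. At least 1 count was found for 12314 ± 329 genes in MI_stiff and 11383 ± 1015 genes in MI (SD, n = 4 each). The MI libraries were uneven, with 12820 genes in MI 1 against 10470, 10958 and 11283 in MI 2, MI 3 and MI 4, and the difference between the groups gave p = 0.1429 (two-sided exact permutation test, for which the smallest possible p is 0.0286). Pairs of libraries correlated across genes (log2 CPM, where genes are no replicates) at 0.9271 to 0.9572 among MI_stiff libraries and 0.8682 to 0.9091 among MI libraries. MI_stiff libraries correlated with MI 1 at 0.9214 to 0.9338 and with MI 2, 3 and 4 at 0.833 to 0.909. Because of this split, results are also given without MI 1, and without MI 2, 3 and 4 (and MI_soft 4, which also had few genes), a fit in which MI 1 is the only untreated infarct and is assumed to vary like the other groups. Markers of cardiomyocytes and fibroblasts were present in both groups, which matched the label of infarcted heart. The cardiomyocyte gene Actc1 (cardiac actin) had 8350 to 10400 CPM in MI_stiff and 7220 to 10000 CPM in MI. Other cardiomyocyte markers went both ways, with log2 differences MI_stiff minus MI of -0.99 (Tnnt2), 1.05 (Myh6) and 1.19 (Ryr2). Tnnt2 had 1690 to 2850 CPM in MI_stiff and 3290 to 6870 CPM in MI. The fibroblast gene Postn (periostin) had 266 to 613 CPM in MI_stiff and 281 to 787 CPM in MI. Dcn, Col1a1 and Pdgfra, also of fibroblasts, differed by -0.62, 0.32 and -0.48. None of these differences passed the test described below. CPM here are counts scaled to library size with TMM factors.

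Of 11376 tested genes, 135 (1.19%) were called changed in MI_stiff against MI by edgeR's quasi-likelihood test at a Benjamini-Hochberg adjusted p under 0.05. Of these, 56 (0.492%) were higher and 79 (0.694%) were lower in MI_stiff. The libraries of the groups did not overlap for 452 genes that were higher (3.97%) and for 444 that were lower (3.9%), together 7.88%. Ligation itself, MI against Sham, changed 4165 genes (36.6%), and MI_stiff against Sham 2410 (21.2%). The median log2 difference of all tested genes was 0.01, and 1938 genes had an unadjusted p under 0.05. The highest called genes included proteins of fused and lipid-laden macrophages, and the lowest included contractile proteins of smooth and skeletal muscle, the lymphatic chemokine Ccl21 and matrix proteins of scar fibroblasts. The count of calls moved with single libraries. Without MI 1 it was 1216 (779 higher and 437 lower), with 134 of the 135 genes among them. It was 15 without MI 2 and 11 without MI 4. Without any 1 MI_stiff library in turn it was 21 to 55, lowest without MI_stiff 3. Without MI 2, 3 and 4 together it was 185, with 21 of the 135 genes among them. The share of calls that were higher was 41.5%, against 64.1% without MI 1, 52.3% with DESeq2 (305 higher and 278 lower) and 31.3% with library quality weights (87 and 191).

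**Figure D1:**
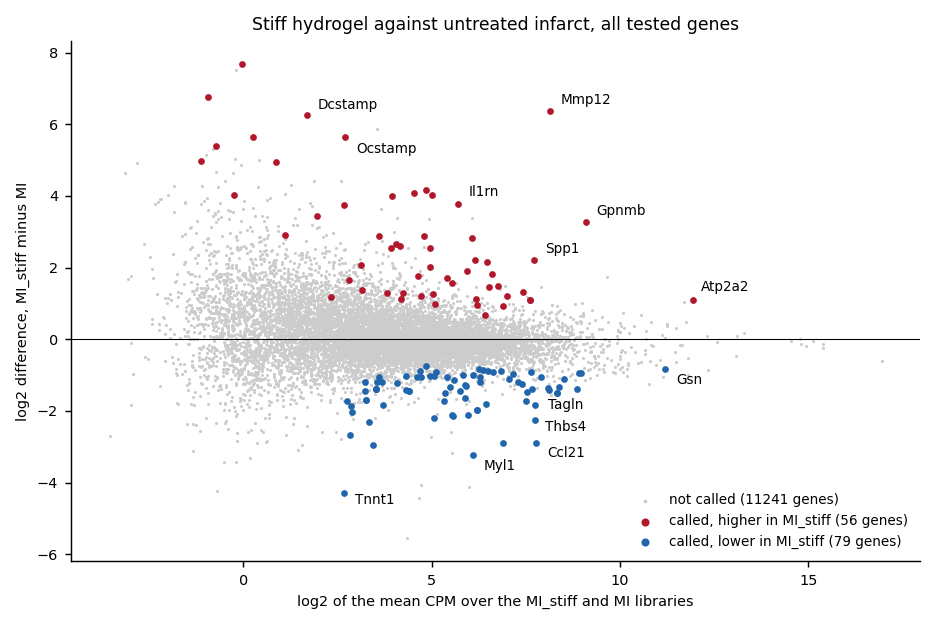
Log2 difference MI_stiff minus MI (vertical) against the log2 of the mean CPM over the 8 libraries (horizontal) for the 11376 tested genes, with the 56 genes called higher in red and the 79 called lower in blue. Mmp12 and Gpnmb stand out as abundant genes with large positive differences, and Ccl21, Tpm2 and Thbs4 are among the abundant genes with large negative differences.

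The gene with the most marked rise among abundant genes was Mmp12, macrophage elastase, a protease that macrophages secrete to degrade elastin. It had 665, 146, 785 and 646 CPM in MI_stiff 1 to 4, against 19.8, 1.59, 4.03 and 1.002 CPM in MI 1 to 4. Every MI_stiff library was above every MI library, with MI_stiff 2 the lowest of its group and MI 1 the highest of its own. The log2 difference was 6.37 ± 0.94 (SE, edgeR adjusted p = 0.00955). MI_soft had 117 ± 98.5 CPM (SD, n = 4), and all 4 Sham libraries were at 0. Against MI_soft the difference of MI_stiff was 2.26 with an adjusted p of 0.213, which does not show that the gels differ or that they act alike. Without MI 2, 3 and 4 the difference from MI was 4.83 and no longer called (adjusted p = 0.144).

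Mmp12 belonged to a list for giant cells and macrophages of osteoclast type with 10 tested genes, of which 4 were higher and 0 lower, against 0.492% of all tested genes called higher. The median log2 difference of the list was 1.90. Dcstamp and Ocstamp are the membrane proteins needed for fusion of osteoclasts and of macrophages into giant cells. Dcstamp had 9.03, 1.77, 4.995 and 9.81 CPM in MI_stiff, against 0.246, 0, 0 and 0 CPM in MI. In counts that was 357 in the 4 MI_stiff libraries and 4 in the MI libraries, all 4 in MI 1, and the log2 difference was 6.27 ± 1.02 (adjusted p = 0.0142). Ocstamp had 12.6, 0.483, 23.1 and 15.2 CPM in MI_stiff, against 0.861, 0, 0 and 0 CPM in MI (5.66 ± 1.25, adjusted p = 0.0432), so MI_stiff 2 lay below MI 1. MI_soft had 1.39 ± 0.59 CPM of Dcstamp and 1.87 ± 1.37 CPM of Ocstamp, and Sham was at 0 for both. Both genes thus passed the expression filter mainly through the gel libraries, chiefly those of MI_stiff, where they were high. Of 16 entries of the list 10 were tested, and the list was chosen with earlier results of these data known. The 4 of 10 is therefore a description and no test of the list. Ctsk, cathepsin K, the collagen-cleaving protease of osteoclasts, had 342, 123, 181 and 338 CPM in MI_stiff, against 97.4, 100.1, 85.0 and 113 CPM in MI (1.32 ± 0.28, adjusted p = 0.0366). The groups did not overlap for Ctsk, though MI_stiff 2 stood only just above MI 4. The summed level of the list was 288 to 1100 CPM in MI_stiff and 96.3 to 143 CPM in MI. Without MI 1, 6 of the 10 genes were called higher, against 6.85% of all genes, and without MI 2, 3 and 4 none was, against 0.483% of all genes, with a median of 1.36. Dcstamp, Ocstamp and Ctsk were not called without MI 4 (adjusted p = 0.0528, 0.114 and 0.0863). Ocstamp and Ctsk were also not called without MI 2, MI_stiff 1, MI_stiff 3 or MI_stiff 4 (0.0622 to 0.130), nor Ocstamp without MI 3 (0.0724).

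**Figure D2:**
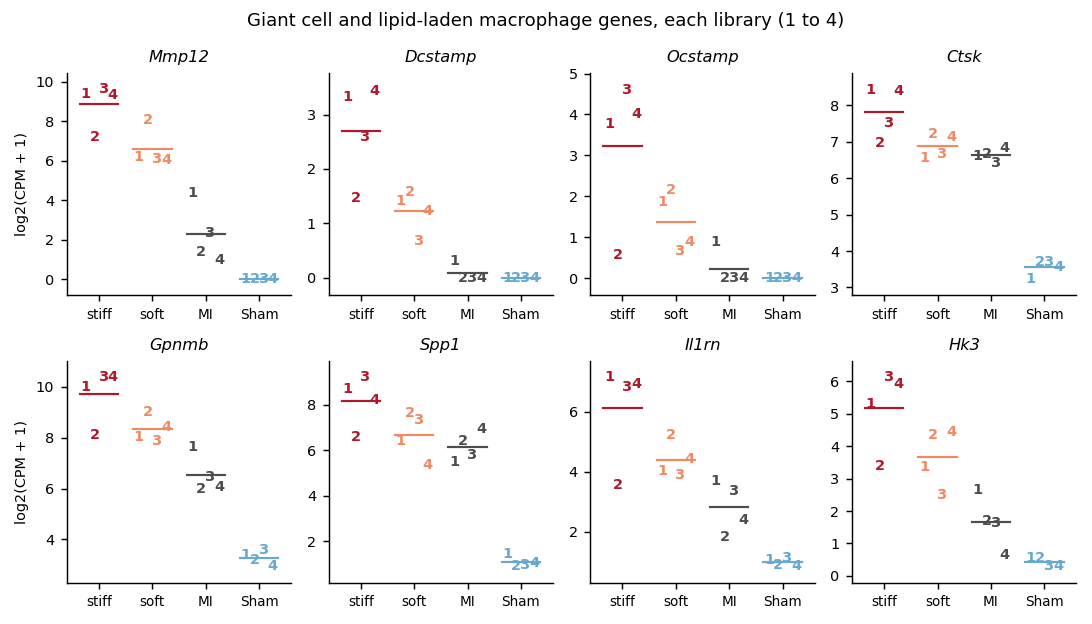
Level of 8 genes as log2(CPM + 1) (vertical) in each library of MI_stiff, MI_soft, MI and Sham, where the digits 1 to 4 are the libraries and the bars are group means. MI_stiff 1, 3 and 4 are high for every gene, MI_stiff 2 is the lowest MI_stiff library for each of them, and MI 1 is the highest MI library for Mmp12, Dcstamp, Ocstamp, Gpnmb, Il1rn and Hk3.

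Genes of lipid-laden macrophages rose in part, with 3 of 12 tested members higher and 0 lower, against 0.492% and 0.694% of all genes. Of their differences 8 were positive and 4 negative, with a median of 0.55. Without MI 1, 4 were called higher and 2 lower, against 6.85% and 3.84% of all genes. Gpnmb, a transmembrane glycoprotein of macrophages that are digesting large loads, had 1017, 273, 1343 and 1337 CPM in MI_stiff, against 198, 61.5, 87.5 and 65.5 CPM in MI. The lowest MI_stiff library was above the highest MI library, and the log2 difference was 3.27 ± 0.47 (adjusted p = 0.00677). MI_soft had 337 ± 127 CPM and Sham 8.81 ± 1.82 CPM of Gpnmb. It was called in every alternative except that without MI 2, 3 and 4, where its difference was 2.33 (adjusted p = 0.145). Spp1, osteopontin, a secreted phosphoprotein of macrophages and bone cells, had 408, 95.1, 600 and 292 CPM in MI_stiff, against 44.2, 84.5, 53.9 and 120 CPM in MI (2.20 ± 0.51, adjusted p = 0.0423), and MI_stiff 2 lay below MI 4. Lipa, the lysosomal acid lipase that frees cholesterol and fatty acids, had 165, 106, 156 and 203 CPM in MI_stiff, against 85.1, 56.9, 104 and 82.3 CPM in MI (0.94 ± 0.22, adjusted p = 0.0441). Per gene length, the mean deposited level in MI_stiff was 1021 TPM for Spp1, 477 TPM for Gpnmb, 396 TPM for Mmp12 and 204 TPM for Ctsk, against 175, 45.3, 4.995 and 68.2 TPM in MI. The calls of Spp1 and Lipa ended without MI 2, MI 4, MI_stiff 1, MI_stiff 3 or MI_stiff 4 (adjusted p-values of 0.0788 to 0.143), and that of Spp1 also without MI 3 (0.0833).

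The sequences just upstream of Mmp12 and Gpnmb are shown because these were the most abundant genes among the large rises. They are the 250 bases before the start of each gene in RefSeq's table for the GRCr8 assembly, another build than the one the authors used, at chr8:12866402-12866651 for Mmp12 and chr4:79340878-79341127 for Gpnmb, both on the plus strand. Capitals mark matches on either strand to TGANTCA, the core of AP-1 sites (the factor of Fos and Jun proteins), to CACGTG, the canonical E-box, and to TCACATGA, the box bound by MITF, a regulator of osteoclast and lysosomal genes.
Mmp12: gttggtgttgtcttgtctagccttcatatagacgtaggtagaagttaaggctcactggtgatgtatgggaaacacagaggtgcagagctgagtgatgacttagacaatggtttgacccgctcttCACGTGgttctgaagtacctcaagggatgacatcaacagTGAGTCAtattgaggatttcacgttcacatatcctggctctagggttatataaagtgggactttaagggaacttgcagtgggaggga
Gpnmb: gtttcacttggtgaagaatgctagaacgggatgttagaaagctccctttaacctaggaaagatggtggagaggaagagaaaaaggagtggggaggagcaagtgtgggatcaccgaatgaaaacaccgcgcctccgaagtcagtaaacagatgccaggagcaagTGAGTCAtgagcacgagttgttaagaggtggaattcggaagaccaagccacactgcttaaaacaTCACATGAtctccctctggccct
TGANTCA began 87 bases before the start in both genes. CACGTG began 126 bases before the start of Mmp12, and TCACATGA 23 bases before that of Gpnmb. These motifs do not overlap one another. Of the genes called higher whose counts were not shared with another gene, 38 of 54 had an upstream sequence in the table: 5 of the 38 (13.2%) held TGANTCA, 3 (7.89%) CACGTG and 2 (5.26%) TCACATGA. Of 56 such genes called lower, 3 (5.36%), 4 (7.14%) and 0 held them. Over all 27457 upstream sequences of that length in the table the shares were 6.36%, 5.79% and 0.965%. A match is only a run of letters, and no binding was measured.

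Of the listed markers of macrophages in general, edgeR called none. Of 27 tested genes of macrophages and monocytes, 0 were called by edgeR, 12 had an unadjusted p under 0.05 (all higher), 5 were called by DESeq2 and 0 by limma-voom. Over all tested genes an unadjusted p under 0.05 was reached by 8.03% on the higher and 9.01% on the lower side. DESeq2 called 5.12% of all tested genes and limma-voom 0.756%. By edgeR 0.492% were called higher and 0.694% lower, and without MI 1 these shares were 6.85% and 3.84%. The counts of lists below, with all libraries or without MI 1, are to be read against these shares. Of the 27 differences 25 were positive, against 50.7% of all genes, with a median of 0.87. Lyz2, the lysozyme of macrophages and neutrophils, had 1846, 297, 1459 and 1388 CPM in MI_stiff, against 604, 342, 301 and 253 CPM in MI (1.73 ± 0.46, adjusted p = 0.0712). C1qc, a complement subunit made by resident macrophages, had 139, 70.6, 141 and 115 CPM in MI_stiff, against 245, 132, 50.005 and 63.8 CPM in MI (-0.08 ± 0.43, adjusted p = 0.943). The summed level of the list was 977 to 3420 CPM in MI_stiff and 759 to 2251 CPM in MI, where MI 1 was highest. Itgb2 and Cd53, genes of white blood cells that the list did not hold, were called higher by edgeR. Itgb2 rose by 2.82 ± 0.62 (adjusted p = 0.0387) and Cd53 by 1.71 ± 0.39 (adjusted p = 0.041). For both, MI_stiff 2 lay below MI 1. Without MI 1, 12 of the 27 were called higher, against 6.85% of all genes, and the median was 1.54. Without MI 2, 3 and 4 none was, and the median was 0.04. In bulk tissue, more cells of a type and more RNA per cell cannot be told apart, here or in any list below.

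Single genes with roles in macrophages and inflammation rose beside these lists. Il1rn, the antagonist that blocks the interleukin-1 receptor, had 142, 10.8, 114 and 122 CPM in MI_stiff, against 11.99, 2.51, 9.29 and 4.28 CPM in MI (3.79 ± 0.62, adjusted p = 0.0103). MI_stiff 2 lay below MI 1, and the other MI_stiff libraries were far above every MI library. It was the only called member of 16 tested cytokine and chemokine genes, whose median was 0.53, and 3 members were called higher and 1 lower without MI 1. Hk3, the hexokinase of white blood cells, had 38.1, 9.49, 68.9 and 59.2 CPM in MI_stiff, against 5.22, 2.26, 2.06 and 0.547 CPM in MI (4.09 ± 0.65, adjusted p = 0.00955). Lilrb4, an inhibitory receptor of myeloid cells, rose by 2.88 ± 0.55 (adjusted p = 0.0228), to 21.6 ± 11.5 CPM in MI_stiff against 2.91 ± 1.37 CPM in MI (SD, n = 4 each). Slc7a2, a transporter of arginine and other cationic amino acids, rose by 3.74 ± 0.88 (adjusted p = 0.0455), and Trpv2, a calcium channel of macrophages and muscle, by 2.56 ± 0.50 (adjusted p = 0.0250). Plau, urokinase, which activates plasminogen, had 23.2, 21.4, 36.5 and 23.2 CPM in MI_stiff, against 7.68, 5.45, 1.03 and 3.37 CPM in MI (2.56 ± 0.47, adjusted p = 0.0191), and here MI_stiff 2 was not set apart from its group. Mmp12 and Plau were the 2 called members of 25 tested genes of matrix proteolysis and its inhibitors, whose median was 0.39, and 6 were called higher and 2 lower without MI 1. Without MI 4 the adjusted p was 0.0528 for Il1rn, 0.0863 for Lilrb4, 0.111 for Slc7a2, 0.0865 for Trpv2 and 0.0759 for Plau. The calls of all of these but Il1rn also ended without MI 2 or MI_stiff 3 (0.0530 to 0.185), those of Lilrb4, Slc7a2 and Trpv2 without MI_stiff 1 or MI_stiff 4 (0.0519 to 0.104), and that of Slc7a2 without MI_stiff 2 (0.0659). Hk3 was called without each library in turn.

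Heme breakdown and lysosomal acidification were represented by single genes that held up better. Hmox1, heme oxygenase 1, which is induced by heme and oxidative stress, had 128, 83.6, 94.0 and 84.2 CPM in MI_stiff, against 35.04, 30.1, 14.4 and 25.0 CPM in MI (1.90 ± 0.28, adjusted p = 0.00677). The groups were far apart, MI_soft had 36.0 ± 11.4 CPM and Sham 7.86 ± 1.44 CPM, and the gene was called in all 19 alternatives, with differences of 1.48 to 2.07. It was 1 of 13 tested genes of heme and iron handling that was called, and the list median was -0.04, with 2 higher and 1 lower without MI 1. Atp6v1b2, a subunit of the vacuolar proton pump, had 207, 135, 164 and 211 CPM in MI_stiff, against 89.7, 69.9, 75.1 and 76.4 CPM in MI (1.204 ± 0.18, adjusted p = 0.00677), and it was the 1 called member of 20 tested lysosome genes, whose median was 0.25, with 2 called higher without MI 1. It was not called without MI 2, 3 and 4 (adjusted p = 0.0633). Among the 20 lysosome genes, 9 had an unadjusted p under 0.05 on the higher and 1 on the lower side. DESeq2 called 4 of them and limma-voom 1. The shares over all genes were 8.03%, 9.01%, 5.12% and 0.756%. Ptcd3, a protein of the mitochondrial ribosome, had 158, 87.1, 178 and 188 CPM in MI_stiff, against 43.9, 39.1, 54.5 and 35.4 CPM in MI (1.82 ± 0.26, adjusted p = 0.00677), and like Hmox1 it was called in all 19 alternatives. Sham had 78.0 ± 11.8 CPM of Ptcd3, between the 2 groups. The list of mitochondrial ribosomal proteins, which did not hold Ptcd3, had 66 tested genes with a median of -0.11. By edgeR 0 of them were called, 3 had an unadjusted p under 0.05 on the higher side and 15 on the lower side, DESeq2 called 4 and limma-voom 0. Against the shares over all genes of 8.03%, 9.01% and 5.12%, 4 of 66 by DESeq2 is near the background. Without MI 1, 8 were called lower, against 3.84% of all genes.

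The remaining genes named among the largest rises had diverse roles. Tnn, tenascin-W, a matrix protein of developing and remodelling connective tissue, had 103, 8.77, 38.8 and 70.7 CPM in MI_stiff, against 4.61, 2.93, 1.03 and 3.46 CPM in MI (4.18 ± 0.68, adjusted p = 0.0142). Rab15, a small GTPase of endosome recycling, averaged 29.3 ± 13.8 CPM in MI_stiff and 1.73 ± 2.92 CPM in MI (4.01 ± 0.89, adjusted p = 0.0389). For Tnn the order was that of the macrophage genes, with MI_stiff 2 lowest in its group and MI 1 highest in its own. Alcam, a cell adhesion molecule, had 25.4, 17.0, 32.3 and 41.2 CPM in MI_stiff, against 9.04, 3.18, 1.88 and 3.92 CPM in MI (2.67 ± 0.51, adjusted p = 0.0228). Rassf4, a Ras-association protein, had 138, 41.5, 134 and 158 CPM in MI_stiff, against 24.4, 32.5, 17.3 and 27.1 CPM in MI (2.22 ± 0.41, adjusted p = 0.0213). Msln, mesothelin, a surface protein of the mesothelial layer that covers the heart, had 12.8, 49.4, 63.9 and 70.5 CPM in MI_stiff, against 1.66, 17.6, 3.94 and 3.74 CPM in MI (2.87 ± 0.67, adjusted p = 0.0452), with MI 2 above MI_stiff 1. It was the 1 called member of 7 tested epicardial and mesothelial genes, of which 5 differences were positive. Their median was 0.88, against 0.46 without MI 1 and 2.93 without MI 2, 3 and 4, and it was 1.84 in MI_stiff against MI_soft. Wt1, a transcription factor of the same layer, had 30.8 to 48.4 CPM in MI_stiff and 8.42 to 60.0 CPM in MI (0.04, adjusted p = 0.978). Without MI 4 all 5 genes lost their call (adjusted p-values of 0.0587 to 0.135). Without MI 2 this held for all but Msln (0.0530 to 0.0735), and without MI_stiff 3 for all but Tnn (0.0628 to 0.130). Without MI_stiff 4 it held for Rab15, Alcam, Rassf4 and Msln (0.0642 to 0.128), without MI_stiff 1 for Rab15 (0.0652), without MI_stiff 2 for Rab15 and Msln (0.0514 and 0.0963), and without MI 3 for Rab15 and Msln (0.0519 and 0.0904).

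Among genes of heart muscle, that of the calcium pump of the sarcoplasmic reticulum was higher in MI_stiff, whereas those of contractile proteins did not pass the test. Atp2a2, the pump that refills the calcium store after each beat, had 5879, 5502, 4872 and 5249 CPM in MI_stiff, against 2771, 1429, 3745 and 2092 CPM in MI (1.10 ± 0.24, adjusted p = 0.0391). All MI_stiff libraries were above all MI libraries. MI_soft had 4857 ± 639 CPM, at 0.15 from MI_stiff (adjusted p = 0.803), and Sham had 14960 ± 1142 CPM. It was the 1 called gene of 24 tested genes of calcium handling and ion channels, of which 21 had a positive difference, with a median of 0.55, against 0.492% of all genes called higher and 50.7% with a positive difference. Without MI 1, 6 of the 24 were called higher, against 6.85% of all genes, with a median of 0.68, and without MI 2, 3 and 4 none was, with a median of 0.23. Of 15 tested contractile proteins 0 were called by edgeR, 2 had an unadjusted p under 0.05 on the higher side and 4 on the lower side, DESeq2 called 2 and limma-voom 0, and the median was -0.16, with 2 called higher and 2 lower without MI 1. Myh7, the slow myosin heavy chain, had 2516, 4460, 2298 and 5592 CPM in MI_stiff, against 8177, 4743, 7520 and 6255 CPM in MI (-0.84 ± 0.31, adjusted p = 0.176). Nppb, the precursor of B-type natriuretic peptide, which ventricles release under wall stress, had 230, 265, 156 and 279 CPM in MI_stiff, against 391, 511, 475 and 625 CPM in MI. It fell by 1.11 ± 0.25 on the log2 scale (adjusted p = 0.0423), with no overlap. It was the 1 called gene of 19 tested genes of wall stress and stretch, whose median was -0.53, with 2 called higher and 3 lower without MI 1. Without MI 2, 3 and 4 the median of these genes was -0.75. MI_soft had 522 ± 123 CPM and Sham 176 ± 48.0 CPM of Nppb. The calls of Atp2a2 and Nppb ended without MI 2, MI 4 or any 1 MI_stiff library (adjusted p-values of 0.0732 to 0.141), and without MI 2, 3 and 4 together (0.0740 and 0.234). Of 17 tested cardiac transcription factors 0 were called by edgeR, 2 had an unadjusted p under 0.05 (both higher), and DESeq2 and limma-voom called 0. Their median was 0.65, against 1.14 without MI 1 (8 called higher) and -0.49 without MI 2, 3 and 4.

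Energy metabolism changed in single genes. Slc2a1, the glucose transporter of most cells other than mature heart and skeletal muscle, had 47.4, 25.6, 64.7 and 48.0 CPM in MI_stiff, against 21.8, 19.7, 13.1 and 22.2 CPM in MI (1.27 ± 0.27, adjusted p = 0.0374), and was the 1 called gene of 18 tested genes of glycolysis and glucose uptake, with 4 called higher without MI 1. Its call ended without MI 2, MI 4, MI_stiff 1, MI_stiff 3 or MI_stiff 4 (adjusted p-values of 0.0652 to 0.122). Of 31 tested genes of fatty acid uptake and oxidation 0 were called by edgeR, 11 had an unadjusted p under 0.05 on the higher side and 1 on the lower side, DESeq2 called 6 and limma-voom 0, and the median was 0.47. The shares over all genes were 8.03%, 9.01%, 5.12% and 0.756%. Without MI 1, 5 were called higher and 1 lower, against 6.85% and 3.84% of all genes, and without MI 2, 3 and 4 the median was 0.53. Lpl, lipoprotein lipase, had 2481, 1941, 1863 and 2213 CPM in MI_stiff, against 653, 929, 2775 and 1786 CPM in MI (0.47 ± 0.36, adjusted p = 0.524). Of 55 tested nuclear genes of mitochondrial respiration and the tricarboxylic acid cycle 1 was called, higher, and the median was 0.02. That gene was Cycs, whose counts equal those of another row in every library, so it is uncertain. Without MI 1, 7 of the 55 were called higher and 3 lower, against 6.85% and 3.84% of all genes. Mitochondrially encoded genes took 37.2% ± 8.5 of counts in MI_stiff and 39.7% ± 8.2 in MI (SD, n = 4 each, two-sided exact permutation p = 0.5714). Aplnr, the receptor of apelin, a peptide that acts on vessels and heart muscle, had 89.5, 179, 177 and 91.9 CPM in MI_stiff, against 53.5, 42.3, 64.7 and 33.2 CPM in MI (1.47 ± 0.26, adjusted p = 0.0184). It was the 1 called gene of 22 tested genes of angiogenic factors and the hypoxia response, whose median was 0.36, with 5 called higher and 3 lower without MI 1, and its call ended without MI 2, MI 4 or MI_stiff 3 (0.0579 to 0.0730).

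Genes of scar fibroblasts and their matrix were lower in MI_stiff in part. Of 16 tested genes of activated fibroblasts, 3 were lower and 0 higher, against 0.694% of all genes called lower, and the median was -0.59, with 1 higher and 4 lower without MI 1. Thbs4, thrombospondin 4, a matricellular protein of stressed heart and tendon, had 58.5, 50.02, 83.6 and 104 CPM in MI_stiff, against 333, 335, 271 and 472 CPM in MI. The groups were far apart, and it fell by 2.25 ± 0.39 (adjusted p = 0.0142). MI_soft had 164 ± 57.5 CPM and Sham 2.57 ± 1.77 CPM. Meox1, a transcription factor switched on in activated cardiac fibroblasts, had 4.52, 3.14, 2.60 and 3.36 CPM in MI_stiff, against 6.52, 20.4, 14.4 and 25.9 CPM in MI (-2.30 ± 0.50, adjusted p = 0.0387), and MI 1 was nearest to MI_stiff. The third gene, Tagln, is described with smooth muscle. Of 16 tested genes of resting fibroblasts 2 were lower: Gsn, the actin-severing protein gelsolin, with 1495, 1772, 1448 and 2040 CPM in MI_stiff, against 2559, 3886, 2667 and 2947 CPM in MI (-0.84 ± 0.19, adjusted p = 0.0391), and Fbln1, the matrix protein fibulin 1, with 346, 357, 243 and 376 CPM in MI_stiff, against 621, 687, 476 and 757 CPM in MI (-0.94 ± 0.19, adjusted p = 0.0315). Their list had 15 negative differences of 16, against 49.3% of all genes, and a median of -0.56, with 5 called lower without MI 1. Gsn was at the level of Sham (1573 ± 34.0 CPM) in MI_stiff, whereas Fbln1 was above it (93.7 ± 8.06 CPM). Thbs4 was not called without MI 4 (adjusted p = 0.0528). The calls of Meox1, Gsn and Fbln1 ended without MI 2, MI 4 or any 1 MI_stiff library (0.0583 to 0.136), and those of Meox1 and Gsn also without MI 2, 3 and 4 together (0.399 and 0.146).

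Other matrix genes that fell were Prelp, a small leucine-rich proteoglycan that anchors basement membranes, Ccn1, a matricellular protein and target of YAP, and Tgfb3, a growth factor of the TGF-beta family. Prelp had 101, 111, 118 and 69.2 CPM in MI_stiff, against 193, 302, 190 and 260 CPM in MI (-1.25 ± 0.24, adjusted p = 0.0250), and all 8 tested genes of its list had a negative difference, with a median of -0.77 and 3 called lower without MI 1. Ccn1 had 44.3, 26.0, 37.3 and 30.2 CPM in MI_stiff, against 74.1, 113, 55.4 and 92.4 CPM in MI (-1.28 ± 0.25, adjusted p = 0.0255), and was the 1 called gene of 17 tested YAP and TAZ targets, whose median was -0.17. Of 17 tested matricellular genes, Thbs4 and Ccn1 were lower and Tnn and Spp1 higher, and the median was -0.42. Tgfb3 had 107, 120, 62.4 and 96.8 CPM in MI_stiff, against 314, 198, 116 and 247 CPM in MI (-1.18 ± 0.27, adjusted p = 0.0391), and was the 1 called gene of 21 tested genes of TGF-beta signalling, whose median was -0.26, with 2 called higher and 2 lower without MI 1. Alpl, the alkaline phosphatase of bone and other tissues, averaged 34.4 ± 10.4 CPM in MI_stiff and 85.2 ± 42.2 CPM in MI (-1.31 ± 0.31, adjusted p = 0.0479). Of 25 tested collagens, 1 was called, Col5a3, a minor fibrillar collagen chain, and it was higher, with 198, 139, 108 and 195 CPM in MI_stiff, against 83.7, 82.4, 32.4 and 30.5 CPM in MI (1.48 ± 0.34, adjusted p = 0.0415). The collagen median was 0.11. Without MI 1, 3 collagens were called higher, against 6.85% of all genes, and the median was 0.23. Without MI 2, 3 and 4 the median was -0.33. For these 5 genes the call ended without MI 2, without MI 4 and without any 1 MI_stiff library (adjusted p-values of 0.0514 to 0.168), except that Ccn1 was still called without MI_stiff 1, and that of Col5a3 also ended without MI 3 (0.0747).

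Of 26 tested genes of integrins, focal adhesion and mechanosensing 0 were called by edgeR. An unadjusted p under 0.05 was reached by 4 on the higher and 5 on the lower side, DESeq2 called 2 and limma-voom 0, against 8.03%, 9.01%, 5.12% and 0.756% of all genes, and the median was -0.07. By DESeq2 the count was near the background. Without MI 1, 4 were called higher and 1 lower. Itgb1, the integrin beta 1 chain, had 601, 765, 617 and 647 CPM in MI_stiff, against 551, 891, 887 and 1067 CPM in MI (-0.37 ± 0.23, adjusted p = 0.434). Tln1, talin, which links integrins to actin, had 204, 302, 371 and 378 CPM in MI_stiff, against 392, 270, 248 and 267 CPM in MI (0.09 ± 0.23, adjusted p = 0.865). The list did not hold Itgb2, the integrin beta 2 chain, which was called higher (2.82 ± 0.62, edgeR adjusted p = 0.0387). Itgb2 had 124, 28.5, 198 and 127 CPM in MI_stiff, against 46.8, 6.70, 5.25 and 8.11 CPM in MI, so MI_stiff 2 lay below MI 1.

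Contractile proteins of smooth muscle fell in part. Of 16 tested genes of smooth muscle cells and pericytes 3 were lower and 0 higher, against 0.694% and 0.492% of all genes, with a median of -0.41. Tagln, transgelin, an actin-binding protein of smooth muscle and of contractile fibroblasts, had 97.0, 81.4, 87.0 and 110 CPM in MI_stiff, against 232, 667, 113 and 337 CPM in MI (-1.85 ± 0.41, adjusted p = 0.0387). MI_stiff libraries were close together, MI libraries were not, and MI 3 stood just above MI_stiff 4. Cnn1, calponin 1, had 3.75, 1.05, 2.04 and 3.22 CPM in MI_stiff, against 14.5, 45.2, 1.78 and 16.5 CPM in MI (-2.95 ± 0.66, adjusted p = 0.0391). Actg2, the smooth muscle gamma actin, had 31.9, 16.6, 20.8 and 25.6 CPM in MI_stiff, against 55.2, 199, 19.7 and 136 CPM in MI (-2.11 ± 0.49, adjusted p = 0.0452). For Cnn1 and Actg2 MI 3 lay within the MI_stiff range. Tpm2, a tropomyosin of smooth and slow skeletal muscle, had 27.4, 21.1, 35.4 and 29.9 CPM in MI_stiff, against 319, 323, 42.7 and 155 CPM in MI (-2.88 ± 0.53, adjusted p = 0.0191), with no overlap. MI_soft had 115 ± 29.5 CPM and Sham 22.2 ± 13.7 CPM of Tpm2. The calls of Tagln, Cnn1 and Actg2 ended without MI 2, MI 4 or any 1 MI_stiff library (adjusted p-values of 0.0680 to 0.167), and that of Tpm2 without MI 2, MI 4 or MI_stiff 2, 3 or 4 (0.0516 to 0.0642). Without MI 2, 3 and 4, Cnn1 and Tpm2 were called (0.0302 and 0.0140) and Tagln and Actg2 were not (0.0657 and 0.0614).

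Skeletal-type muscle genes were lower as well, and MI 1 carried much of this. Of 8 tested genes of skeletal muscle 2 were lower, against 0.694% of all genes, all 8 differences were negative and the median was -3.21. Myl1, a myosin light chain of fast skeletal muscle, had 13.4, 17.1, 4.43 and 17.3 CPM in MI_stiff, against 347, 73.3, 30.1 and 42.5 CPM in MI (-3.24 ± 0.65, adjusted p = 0.0255). Tnnt1, the troponin T of slow skeletal muscle, had 0.612, 0.322, 0.774 and 0.739 CPM in MI_stiff, against 40.0, 5.86, 0.375 and 2.64 CPM in MI (-4.30 ± 0.95, adjusted p = 0.0387). MI_soft had 3.06 ± 0.869 CPM and Sham 0.363 ± 0.175 CPM of Tnnt1, so it passed the expression filter mainly through MI and MI_soft. Of 23 entries of the list 8 were tested, so the count of negative differences is no test of the list. The summed level of the list was 29.8 to 70.4 CPM in MI_stiff and 58.2 to 1214 CPM in MI, with the highest in MI 1. Tnnt1 was not called without MI 1 (adjusted p = 0.0545), and the list median was then -0.82 with 1 gene called. Myl1 kept its call without MI 1 (0.0117). The calls of both ended without MI 2 or any 1 MI_stiff library (0.0534 to 0.122), and that of Tnnt1 also without MI 4 (0.0615). Without MI 2, 3 and 4, 7 of the 8 were called lower, against 1.14% of all genes, with a median of -4.90.

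**Figure D3:**
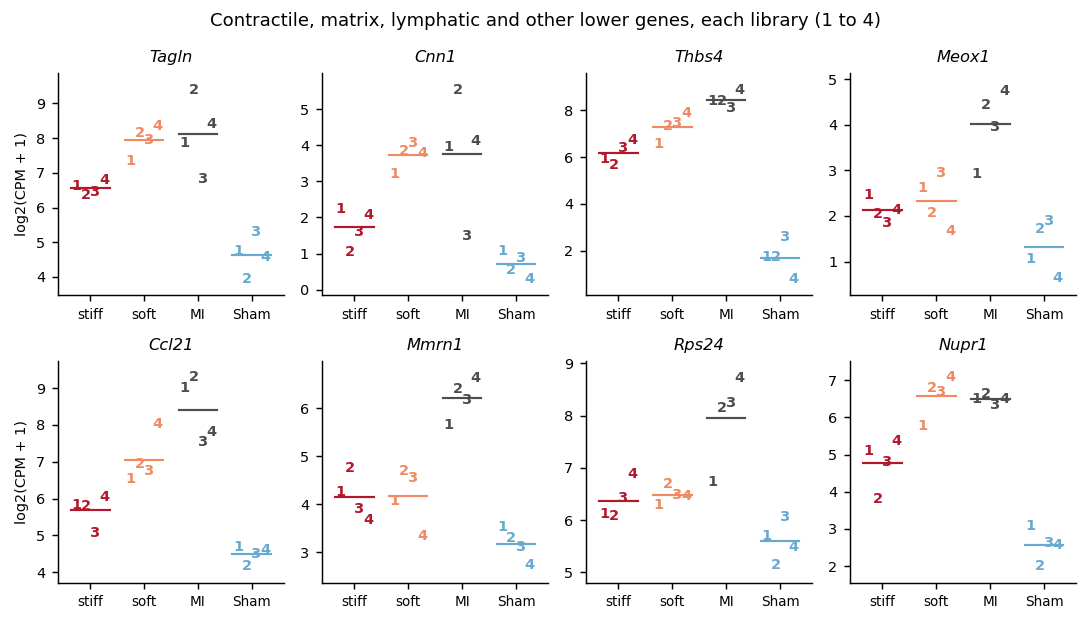
Level of 8 genes as log2(CPM + 1) (vertical) in each library of MI_stiff, MI_soft, MI and Sham, where the digits 1 to 4 are the libraries and the bars are group means. Ccl21, Mmrn1, Thbs4 and Nupr1 separate all MI_stiff from all MI libraries, whereas MI 3 lies within the MI_stiff range for Cnn1 and MI 1 within it for Rps24.

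Genes of lymphatic endothelium fell in part. Of 11 tested genes of lymphatic vessels 2 were called lower and 0 higher, 6 had no overlap on the lower side, against 3.9% of all genes, and the median was -0.87. Without MI 1, 4 were called lower and 2 higher, against 3.84% and 6.85% of all genes. Without MI 2, 3 and 4 the median was -1.49. Ccl21, the chemokine by which lymphatic vessels attract dendritic cells and T cells, had 56.0, 54.9, 32.7 and 64.9 CPM in MI_stiff, against 515, 624, 184 and 224 CPM in MI. It fell by 2.89 ± 0.40 (adjusted p = 0.00677). MI_soft had 144 ± 76.4 CPM and Sham 21.6 ± 3.28 CPM. Mmrn1, multimerin 1, a protein of lymphatic endothelium and platelets, had 18.1, 26.2, 13.9 and 11.7 CPM in MI_stiff, against 49.2, 83.2, 71.6 and 98.3 CPM in MI (-2.11 ± 0.33, adjusted p = 0.00955), and MI_soft had 18.1 ± 7.09 CPM. Both genes were called in all 19 alternatives, with differences of -3.31 to -2.50 for Ccl21 and -2.36 to -1.49 for Mmrn1. Lyve1, the hyaluronan receptor of lymphatic vessels and some macrophages, had 42.4 to 69.2 CPM in MI_stiff and 77.6 to 134 CPM in MI (-0.87, adjusted p = 0.0609). Prox1, the transcription factor that defines lymphatic cells, was near the detection limit, with 0.0765 to 1.97 CPM in MI_stiff and 0 to 0.983 CPM in MI (2.10, adjusted p = 0.314). Of 20 tested genes of endothelial cells in general 0 were called by edgeR, 1 had an unadjusted p under 0.05 on the higher and 5 on the lower side, DESeq2 called 1 and limma-voom 0, and the median was -0.17, with 2 called lower without MI 1.

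Cytosolic ribosomal proteins, which build the ribosome, were the list with the most lower calls. Of 62 tested, 10 were lower and 0 higher, against 0.694% and 0.492% of all genes, 61 had a negative difference, against 49.3% of all genes, and the median was -0.78. The counts of 13 of the 62, among them the called Rpl36a, Rplp1 and Rps12, equal those of another row and are uncertain. Rps16 had 294, 203, 204 and 334 CPM in MI_stiff, against 483, 816, 497 and 914 CPM in MI (-1.39 ± 0.25, adjusted p = 0.0184). Rps24 had 68.5, 66.4, 84.8 and 117 CPM in MI_stiff, against 105, 282, 303 and 420 CPM in MI (-1.72 ± 0.32, adjusted p = 0.0220), so MI 1 lay within the MI_stiff range. Rpl27a fell by 1.37 ± 0.26 (adjusted p = 0.0228) and Rpl11 by 1.42 ± 0.28 (adjusted p = 0.0250). MI_soft had 89.1 ± 10.4 CPM and Sham 48.6 ± 13.2 CPM of Rps24. The summed level of the list was 18964, 14211, 11542 and 15970 CPM in MI_stiff, against 18248, 29373, 22719 and 34354 CPM in MI, so MI 1 lay within the MI_stiff range. Without MI 1, 28 were called lower, against 3.84% of all genes, and without MI 2, 3 and 4, 3 were, against 1.14%, with a median of -0.28. The calls of these 4 genes ended without MI 2, MI 4, MI_stiff 2 or MI_stiff 3 (adjusted p-values of 0.0514 to 0.0962), those of Rps24, Rpl27a and Rpl11 without MI_stiff 1 (0.0553 to 0.0652), and that of Rpl27a without MI_stiff 4 (0.0642).

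Immediate early genes, which are transcribed within minutes of a stimulus, went both ways. Of 19 tested 3 were called lower and 1 higher, against 0.694% and 0.492% of all genes, with a median of -0.54. Without MI 1, 4 were called lower and 1 higher, against 3.84% and 6.85% of all genes. Fos, a subunit of AP-1, had 9.42, 5.23, 4.92 and 3.22 CPM in MI_stiff, against 24.4, 19.5, 25.1 and 12.7 CPM in MI (-1.84 ± 0.41, adjusted p = 0.0391). Dusp1, a phosphatase that switches off MAP kinases, had 93.8, 84.6, 80.6 and 75.8 CPM in MI_stiff, against 171, 228, 178 and 149 CPM in MI (-1.12 ± 0.21, adjusted p = 0.0191). Nr4a1, an orphan nuclear receptor, had 9.72, 10.2, 17.4 and 10.5 CPM in MI_stiff, against 53.9, 113, 6.94 and 46.2 CPM in MI (-2.20 ± 0.49, adjusted p = 0.0391), and MI 3 was below all MI_stiff libraries. Atf3, a stress-induced transcription factor, was higher, with 84.4, 37.9, 69.0 and 85.2 CPM in MI_stiff, against 23.3, 22.2, 16.3 and 31.9 CPM in MI (1.56 ± 0.31, adjusted p = 0.0250). For Fos, Dusp1 and Nr4a1 the MI_soft level was near that of MI_stiff (6.28 ± 2.25, 108 ± 19.0 and 17.8 ± 0.889 CPM). Nupr1, a chromatin-associated stress protein, had 33.1, 13.1, 26.9 and 40.4 CPM in MI_stiff, against 88.8, 98.7, 79.7 and 89.4 CPM in MI (-1.65 ± 0.33, adjusted p = 0.0250). All 5 calls ended without MI 2 or MI_stiff 3 (adjusted p-values of 0.0629 to 0.152), all but that of Dusp1 without MI 4 (0.0528 to 0.101), and all but that of Nupr1 without MI_stiff 4 (0.0658 to 0.118). Those of Fos, Nr4a1 and Nupr1 ended without MI_stiff 2 (0.0514 to 0.113), those of Nr4a1 and Atf3 without MI_stiff 1 (0.0796 and 0.0643), and that of Fos without MI 3 (0.0591).

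A further 4 genes were among the largest falls. Uchl1, a ubiquitin hydrolase of neurons, had 4.52, 3.54, 1.69 and 2.01 CPM in MI_stiff, against 9.96, 12.1, 10.8 and 14.9 CPM in MI (-2.02 ± 0.40, adjusted p = 0.0250). Ngef, a guanine nucleotide exchange factor, averaged 3.08 ± 1.46 CPM in MI_stiff and 11.4 ± 4.70 CPM in MI (-1.87 ± 0.42, adjusted p = 0.0398). Cyp21a1, the steroid 21-hydroxylase, averaged 1.92 ± 0.871 CPM in MI_stiff and 12.3 ± 9.07 CPM in MI (-2.67 ± 0.58, adjusted p = 0.0387), and Nol12, a nucleolar protein, 3.11 ± 0.6004 CPM in MI_stiff and 10.3 ± 5.36 CPM in MI (-1.73 ± 0.38, adjusted p = 0.0389). None of the 4 had overlapping groups. All 4 calls ended without MI 2, MI 4 or MI_stiff 2, 3 or 4 (adjusted p-values of 0.0514 to 0.134), and all but that of Uchl1 without MI_stiff 1 (0.0793 to 0.0796).

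The lists of interferon, lymphocyte and antigen presentation genes held no called gene, although those of lymphocytes moved with MI 1. Of 27 tested genes of the interferon response 0 were called by edgeR, although 24 differences were negative, with a median of -0.59, and 6 genes had no overlap on the lower side, against 3.9% of all genes. An unadjusted p under 0.05 was reached by 1 on the higher and 7 on the lower side, DESeq2 called 2 and limma-voom 0. Without MI 1, 4 were called lower, against 3.84% of all genes, with a median of -0.57, and without MI 2, 3 and 4 none was, with a median of -0.35. Irf7, a transcription factor of the interferon response, had 35.4, 54.5, 44.1 and 53.5 CPM in MI_stiff, against 90.6, 169, 112 and 90.6 CPM in MI (-1.30 ± 0.76, adjusted p = 0.398). The groups did not overlap, but MI_soft 4 had 1471 CPM, and the spread of all 16 libraries enters the SE. Of 16 tested genes of T and natural killer cells, 13 of B and plasma cells and 7 of MHC class II presentation 0 were called by edgeR, of which 1 B and plasma cell gene had an unadjusted p under 0.05 on the higher and 1 on the lower side, and DESeq2 and limma-voom called 0. Their medians were -0.05, -0.95 and 0.57. Without MI 1 the medians were 1.198, 0.85 and 0.92, with 4 T and natural killer cell genes, 1 B and plasma cell gene and 1 MHC class II gene called higher, against 6.85% of all genes. Without MI 2, 3 and 4 they were -1.15, -1.71 and -0.23. Cd74, the invariant chain of MHC class II, had 852, 161, 851 and 440 CPM in MI_stiff, against 738, 404, 193 and 299 CPM in MI (0.50 ± 0.47, adjusted p = 0.610).

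**Figure D4:**
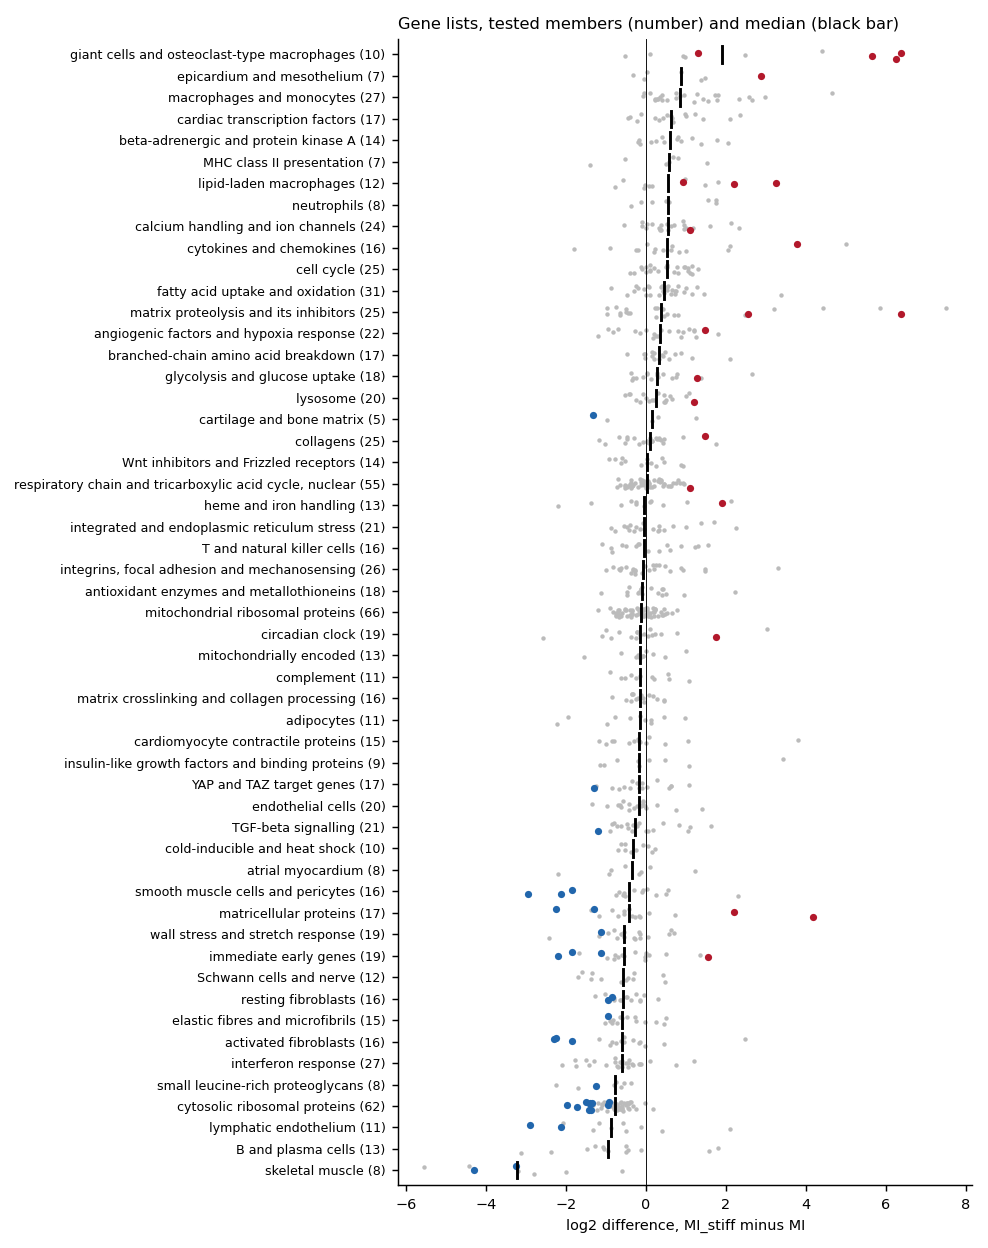
Log2 difference MI_stiff minus MI (horizontal) of each tested member of the lists with at least 5 tested members (number in brackets), with called members in red (higher) or blue (lower), other members in grey and the list median as a black bar. The giant cell list has the highest median (1.90) and that of skeletal muscle the lowest (-3.21), and the cytosolic ribosomal proteins lie almost wholly below 0. Some members of the giant cell and skeletal muscle lists passed the expression filter mainly through groups where they are high.

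Of 55 lists with a tested member, 27 had a called gene and 28 had none. Lists without a call included cell cycle genes (25 tested, median 0.53), adipocytes (11, median -0.15), Schwann cells and nerve (12, median -0.56), complement (11, median -0.14) and endoplasmic reticulum and integrated stress (21, median -0.04). In these 5 lists edgeR called 0 genes, with 5, 1, 0, 0 and 3 at an unadjusted p under 0.05 on the higher side and 0, 1, 4, 0 and 3 on the lower side, and DESeq2 called 1, 0, 0, 0 and 1.

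The 2 gel groups were compared by testing MI_stiff against MI_soft directly. Of 11376 genes 11 (0.0967%) were called, 7 higher and 4 lower in MI_stiff, and because there were so few all are named here. Both gel groups are compared with the same MI libraries, so the levels are given side by side. Arntl, also called Bmal1, a core activator of the circadian clock whose transcript oscillates over the day, had 54.3, 48.2, 11.8 and 40.6 CPM in MI_stiff, 5.15, 7.15, 6.48 and 2.26 CPM in MI_soft and 10.3, 12.1, 9.76 and 13.5 CPM in MI. MI_stiff 3 lay among the MI libraries and the other MI_stiff libraries near Sham (51.5 ± 3.04 CPM). Arntl was higher in MI_stiff than in MI_soft by 2.87 ± 0.39 (adjusted p = 0.00336) and than in MI by 1.76 ± 0.37 (adjusted p = 0.0367). The call against MI ended without MI 2, MI 4 or MI_stiff 1, 2 or 4 (adjusted p-values of 0.0721 to 0.0873). Npas2, a partner of Arntl, was higher than in MI_soft by 2.82 ± 0.42 (adjusted p = 0.00833), with 19.2 ± 8.85 CPM in MI_stiff, 2.69 ± 1.75 CPM in MI_soft and 11.2 ± 1.99 CPM in MI (SD, n = 4 each). Dbp, a clock output factor that peaks when Arntl is low, had 5.51, 6.03, 36.2 and 4.50 CPM in MI_stiff, 185, 175, 145 and 397 CPM in MI_soft and 175, 56.4, 48.9 and 31.6 CPM in MI. It was lower than in MI_soft by a log2 difference of -4.11 ± 0.67 (adjusted p = 0.0209), and MI_stiff 3 was the highest of its group. The difference from MI was -2.58 ± 0.63 (adjusted p = 0.0533). In the list of 19 tested clock genes Arntl was the 1 called in MI_stiff against MI, and the median was -0.13. The labels do not give the hour of collection, so gel and hour of collection cannot be told apart for these genes. This was not tested.

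The 250 bases before the start of Arntl, on the plus strand at chr1:176766078-176766327 of GRCr8 and from the same RefSeq table, are shown because the clock feeds back on this gene. Capitals mark a match to TNGGTCA, the core of the element read by ROR and REV-ERB receptors.
Arntl: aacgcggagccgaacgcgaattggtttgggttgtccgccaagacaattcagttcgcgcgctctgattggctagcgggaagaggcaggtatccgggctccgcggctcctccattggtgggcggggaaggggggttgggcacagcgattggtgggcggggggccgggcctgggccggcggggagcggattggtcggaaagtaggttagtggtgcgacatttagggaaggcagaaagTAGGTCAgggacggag
The match began 16 bases before the start, and CACGTG was not among these letters. Among all upstream sequences 9.55% held TNGGTCA, against 10.5% of those of genes called higher and 7.14% of those of genes called lower in MI_stiff against MI.

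**Figure D5:**
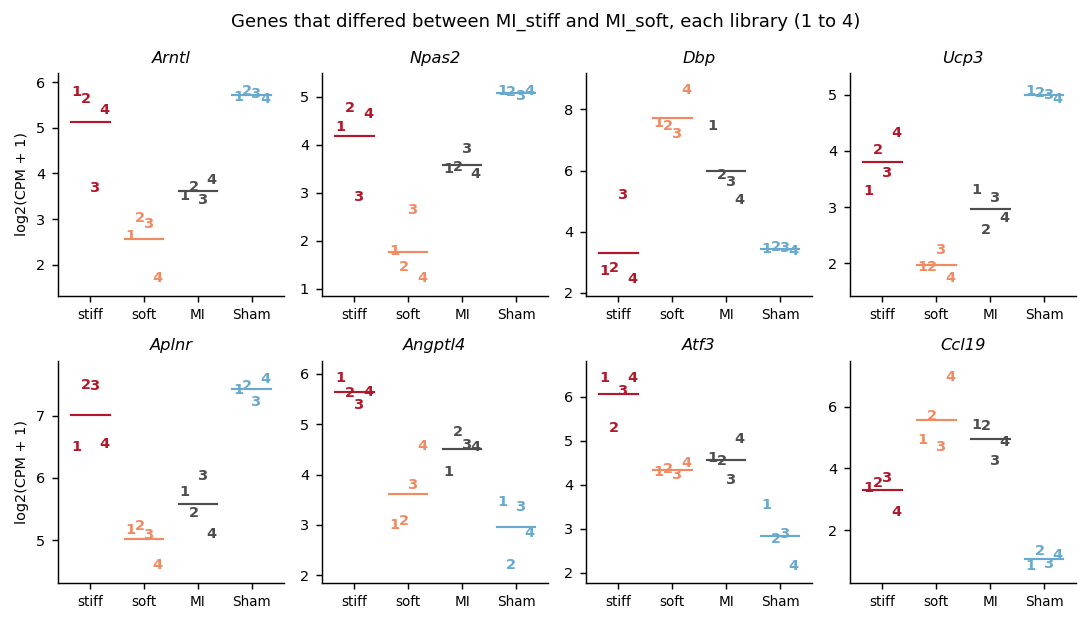
Level of 8 of the 11 genes that differed between MI_stiff and MI_soft as log2(CPM + 1) (vertical) in each library of MI_stiff, MI_soft, MI and Sham, where the digits 1 to 4 are the libraries and the bars are group means. MI_stiff 3 departs from its group for Arntl, Npas2 and Dbp together, and for Aplnr and Ucp3 the MI_stiff libraries lie above all MI_soft libraries.

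Ucp3, a mitochondrial carrier of muscle induced by fatty acids, had 8.73, 15.2, 11.1 and 18.9 CPM in MI_stiff, 2.84, 2.81, 3.70 and 2.34 CPM in MI_soft and 8.85, 5.03, 7.97 and 6.01 CPM in MI. It was higher than in MI_soft by 2.20 ± 0.28 (adjusted p = 0.00273), whereas the difference from MI was 0.95 ± 0.27 (adjusted p = 0.0875). Angptl4, an inhibitor of lipoprotein lipase that is induced by fatty acids and hypoxia, had 49.3 ± 7.63 CPM in MI_stiff, 12.5 ± 7.23 CPM in MI_soft and 22.2 ± 4.94 CPM in MI, and was higher than in MI_soft by 1.98 ± 0.36 (adjusted p = 0.0365). Aplnr was higher than in MI_soft (32.0 ± 5.92 CPM) by 2.07 ± 0.27 (adjusted p = 0.00273), Atf3 (19.4 ± 1.71 CPM in MI_soft) by 1.84 ± 0.31 (adjusted p = 0.0275), and Fmo5, a flavin monooxygenase, by 1.69 ± 0.30 (adjusted p = 0.0353). Fmo5 had 10.6 ± 2.37 CPM in MI_stiff, 3.29 ± 0.642 CPM in MI_soft and 3.37 ± 0.635 CPM in MI, and it was also higher than in MI (1.65 ± 0.30, adjusted p = 0.0191), a call that ended without MI 2, MI 4 or MI_stiff 3 (0.0528 to 0.0682). Lower than in MI_soft were Nupr1 (-1.81 ± 0.33, adjusted p = 0.0353), with 99.6 ± 33.7 CPM in MI_soft, and Ccl19, a chemokine of lymphoid tissue that shares its receptor with Ccl21 (-2.64 ± 0.45, adjusted p = 0.0276). Ccl19 had 9.26, 10.6, 12.03 and 4.97 CPM in MI_stiff, 29.5, 51.4, 25.0 and 123 CPM in MI_soft and 41.7, 40.2, 17.9 and 28.0 CPM in MI (-1.79 ± 0.44 against MI, adjusted p = 0.0544). Ighe, an immunoglobulin heavy chain constant gene of plasma cells, had 4.90, 10.6, 11.5 and 6.45 CPM in MI_stiff, 4273, 166, 731 and 2309 CPM in MI_soft and 208, 4.10, 3.38 and 5.83 CPM in MI (-7.80 ± 1.39 against MI_soft, adjusted p = 0.0353). The count of 11 was between 4 and 10 without 1 MI_stiff library in turn and between 5 and 17 without 1 MI_soft library, lowest without MI_stiff 4, and 4 to 7 of the 11 genes were then still called. For the macrophage genes Gpnmb, Spp1 and Ctsk the MI_soft mean lay between those of MI_stiff and MI. The difference of MI_stiff from MI_soft was 1.56 ± 0.44 for Gpnmb (adjusted p = 0.138), 1.53 ± 0.50 for Spp1 (adjusted p = 0.194) and 1.03 ± 0.28 for Ctsk (adjusted p = 0.124), none of which passed the test.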

How the data were processed

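Total RNA from the infarct zone was sequenced on an Illumina instrument after mRNA purification, per the labels. The authors deposited expected counts per gene, estimated by RSEM 1.3.1 after alignment with STAR 2.7.3a to rn7, per the submitters' processing notes, and TPM values of the same libraries, which the authors deposited as a second table. No source used here gives the annotation. Expected counts, 0.785% of them fractional, were rounded to whole numbers. Of 17085 genes, 11376 passed edgeR's expression filter. All 16 libraries entered 1 fit with a coefficient per group (edgeR 4.0.16 in R 4.3.3, TMM, robust quasi-likelihood test, Benjamini-Hochberg adjustment), so every group shares 1 estimate of spread, with a common biological coefficient of variation of 0.403. Values after ± are SD for levels and SE for log2 differences, and CPM of single libraries are TMM-scaled. TPM served to set levels of different genes side by side. Of the tested genes 483 have counts equal to those of another row in every library, 11 of them called, and these were not named. Scripts were tested on simulated data.

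Alternatives were other size factors, DESeq2 1.42.0, limma 3.58.1 (voom, library quality weights, log2(TPM + 1)), other filters, the 8 libraries alone, mitochondrially encoded genes left out, a replicate block, and leaving out each library or the 4 with few genes. Named are the 12 highest and 12 lowest called genes with a mean of at least 5 CPM and no overlap, the 6 with the smallest p, up to 4 called genes of each of 56 lists, or the 2 most abundant where none was called (not all of these are printed, and 1 is not reported here). Actc1, Tnnt2, Myh6, Ryr2, Postn, Dcn, Col1a1, Pdgfra, Wt1, Lyve1 and Prox1 are named as markers, and the genes called between the gels because they are few. Itgb2 and Cd53 are named beside lists that do not hold them, and their fits without single libraries are not given. Of 1272 list entries, 1075 matched a row of the count table and 995 entered the tests. Genes and lists were chosen with earlier results of these data known. RefSeq upstream sequences were matched by symbol, or synonym for Arntl. Totals of 10940685 to 13061952 counts set the counting error, which is small beside the spread between libraries for abundant genes.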

Additional observations from a re-analysis of the deposited data

Results flagged for a closer look

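Among 246 groups of 4 libraries examined for the named genes, 21 held a library far from the other 3. For normally distributed values the cut-off flags about 1 group in 20. That rate need not hold here, because CPM can be skewed or at 0 and the genes were chosen from these same libraries. In MI, MI 1 was the library set apart and high for Cd4 (90.7 CPM), Dcstamp (0.246 CPM), Ighe (208 CPM), Jchain (18.7 CPM), Mmp12 (19.8 CPM), Myl1 (347 CPM), Ocstamp (0.861 CPM), Prkaca (165 CPM), Rab15 (6.09 CPM), Tln1 (392 CPM) and Tnnt1 (40.0 CPM), and low for Hspa5 (296 CPM). MI 2 was high for Hspb1 (748 CPM) and Msln (17.6 CPM), and MI 3 was low for Tgm2 (379 CPM). In MI_stiff, MI_stiff 1 was high for Srf (64.5 CPM), MI_stiff 2 for Tgm2 (494 CPM), MI_stiff 3 for Dbp (36.2 CPM), Nr4a1 (17.4 CPM) and Plau (36.5 CPM), and MI_stiff 4 for Cyp21a1 (3.22 CPM).

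The 2 gel groups differed in level for 11 genes by the direct test of MI_stiff against MI_soft (edgeR adjusted p of 0.00273 to 0.0365). Whether the gel or another difference between the groups, such as the hour of collection, lay behind this was not tested. The log2 difference was 2.87 for Arntl, 2.82 for Npas2, 2.20 for Ucp3, 2.07 for Aplnr, 1.98 for Angptl4, 1.84 for Atf3 and 1.69 for Fmo5. It was -1.81 for Nupr1, -2.64 for Ccl19, -4.11 for Dbp and -7.80 for Ighe.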

How the results depend on the processing

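Of 135 genes called in MI_stiff against MI, DESeq2 called all within a larger set of 583, and 123 genes were called with RLE size factors. The count was 86 with limma-voom, 278 with library quality weights, 82 with no filter, 17 from the 8 libraries alone and 110 on log2(TPM + 1), where 82.7% were higher and the median of all genes was 0.21. The share of higher calls was 52.3% with DESeq2, 51.2% with limma-voom and with no filter, 31.3% with quality weights and 64.7% from the 8 libraries alone. Leaving out 1 library gave 11 to 1216 calls, lowest without MI 4 and highest without MI 1. For MI_stiff against MI_soft the count of 11 became 278 with DESeq2, 17 with limma-voom, 513 with quality weights and 4 to 17 without 1 library. The cause was not tested. Deviations of same-numbered MI_stiff and MI libraries from their group means correlated at -0.285 to -0.0151, and those of differently numbered ones at -0.186 to 0.383. So few pairs cannot decide whether libraries of the same number shared a batch, and the labels do not say. A fit with the replicate number as a block called 34 genes against MI and 3 against MI_soft.

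Of 58 named called genes, Itgb2 and Cd53 aside, none reversed. The calls kept numbered 58 with DESeq2, 57 with RLE factors, 39 with quality weights, 36 each with limma-voom and on TPM, 44 with no filter, 13 from the 8 libraries alone and 10 (without MI 4) to 57 (without MI 1) with 1 library left out. The difference in genes with a count was 627.25 to 1410.6 without 1 library. That of the mitochondrially encoded share, -2.48 percentage points, ran from -6.4117 to 1.555 (without MI_stiff 4) and was 1.1775 as a share of TPM.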
